A study of Oryza sativa with 12 samples.

Results

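A set of 146 probe sets was bright on every N22 array and at background on every IR64 array. It was drawn from 57194 rice probe sets on an Affymetrix array, after 187 control probe sets were left out. A probe set entered it where all 6 N22 arrays read 9 or higher and all 6 IR64 arrays read 4.2 or lower, on the log2 scale of the authors' GCRMA values. GCRMA corrects background from the base composition of the probes and gives 1 normalised value per probe set. Of the 17 member genes with an informative name, 6 encode seed storage proteins, 3 seed allergens, 2 enzymes of starch synthesis and 3 other seed proteins.

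Total RNA from panicles of main tillers was hybridised to 12 arrays, in 4 groups of 3. IR64 is a cultivar that the labels call susceptible to heat, and Nagina22 (N22) is one they call heat tolerant. Each cultivar had a control group and a heat group. Heated plants spent 8 days at 5 °C above ambient, night included, in a phenotyping facility, and control plants stood in the open field beside it, so heat and growing site changed together. The sources do not say whether replicates came from separate plants or how many were pooled, so p-values reflect only how much these arrays vary, which may be technical variation.

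During grain filling the cereal endosperm stores starch and protein. Glutelins and prolamins are the storage proteins of rice and are laid down in protein bodies. Granule-bound starch synthase makes amylose, and soluble starch synthases and branching enzymes build amylopectin. Proteins that protect the drying seed, such as LEA proteins, are made as the grain matures.

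The N22 against IR64 difference chose the members, so it is given as a description, with no test. Since IR64 lay at background by the rule, folds are lower bounds, from the N22 mean down to 4.2. N22 means ran from 9.07 to 15.12, with a median of 11.71, and the lower bounds ran from 29.4-fold to 2038-fold in control plants (median 222) and from 28.9-fold to 2036-fold under heat (median 184). For comparison, the fit called 35.1% of the 29801 tested probe sets higher in N22 in controls and 29.6% under heat. By level, 71 members averaged 12 or higher and 24 averaged 14 or higher. The opposite rule, IR64 at 9 or higher and N22 at 4.2 or lower, was met by 33 probe sets.

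**Figure D1:**
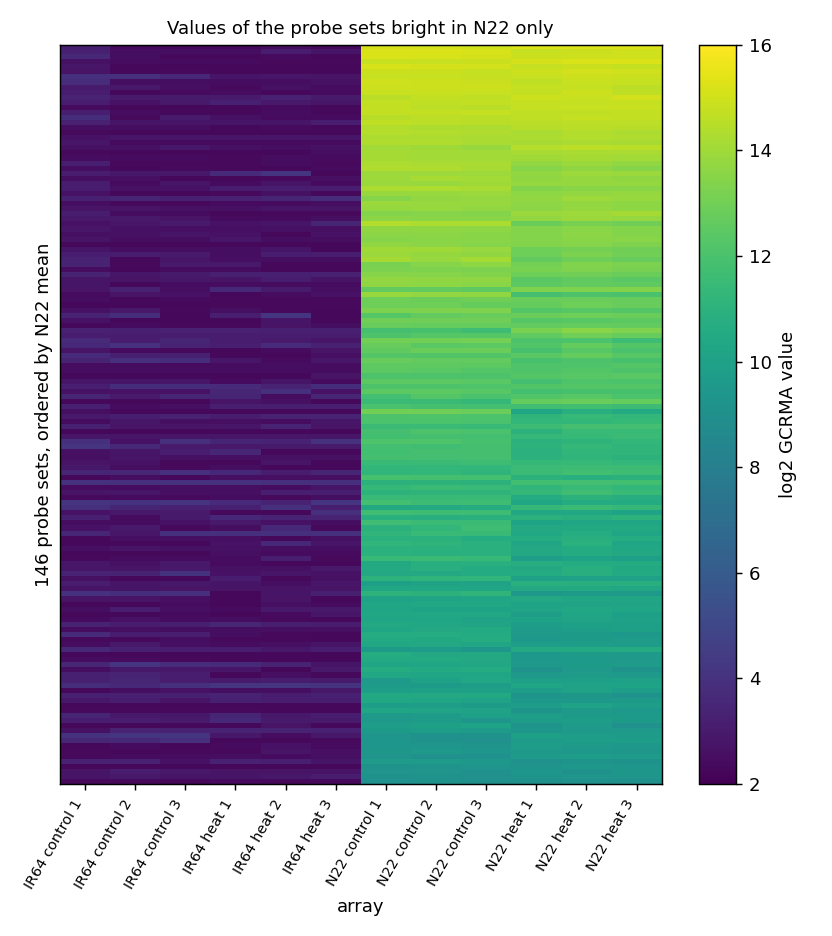
Heat map of the log2 GCRMA values of the 146 probe sets (rows, ordered by N22 mean) on the 12 arrays (columns), with the colour scale in log2 units. The 6 IR64 columns lie at 4.2 or lower throughout and the 6 N22 columns at 9 or higher, which is how the rows were chosen.

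The IR64 values of the members ran from 2.29 to 4.18 with a median of 2.63. Of these 876 values, 131 (15.0%) lay within 0.01 of the lowest value in the table, against 44.6% of all values in the table. IR64 control replicate 1 stood slightly apart. The members' median was 2.75 on it and between 2.55 and 2.65 on the other IR64 arrays, and it held the highest IR64 value for 55 of the 146. Without that array the rule was met by 152 probe sets.

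Naming was limited. The array annotation gave a single gene for 90 members and several genes for 3, and left 53 unpaired. The 90 stood for 78 genes, of which 17, with 21 probe sets, had an informative name. Pairing with 1 gene was reached by 61.6% of members, 85.8% of the 4295 other probe sets bright on all N22 arrays and 39.2% of all probe sets. Probe sets with the suffix _x_at, whose probes can also match other transcripts, made up 18.5% of members, 8.24% of the other bright probe sets and 12.5% of all probe sets. For the suffix _s_at these shares were 16.4%, 9.27% and 4.92%. Near-identical genes such as the glutelins may therefore share signal.

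The storage protein genes were among the brightest members. GLUA3 (LOC4333164), a glutelin, read 14.82, 14.80 and 14.88 on the N22 control arrays and 15.10, 15.19 and 15.28 under heat, against 2.36 to 2.65 in IR64. That was at least 1588-fold above background in N22 controls and at least 2035-fold under heat. GLUA2 (LOC4348563) averaged 14.79 ± 0.03 (SD, n = 3) in N22 controls and 14.88 ± 0.05 under heat. Its IR64 values were 3.89, 3.89 and 3.54 in controls and 2.78, 2.84 and 2.73 under heat. All of these lie under the background level, so no IR64 fold is given. GLUA1 (LOC4327027) averaged 14.07 ± 0.02 and 14.20 ± 0.03 in N22 control and heat.

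GLUB5 (LOC4328968), another glutelin, read 14.04, 13.98 and 13.84 in N22 controls and 14.44, 14.61 and 14.53 under heat. The 2 groups did not overlap, which held for 112 of the 146 members. GLUD1 (LOC4328877), a glutelin of the starchy endosperm, read 14.37, 14.29 and 14.29 in N22 controls and 14.51, 14.54 and 14.51 under heat. The prolamin gene PROLM25 (LOC4342688) had 2 member probe sets, with N22 control means of 14.37 ± 0.06 and 13.86 ± 0.01.

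The seed allergens RAG1, RAG2 and RA5 belong to the alpha-amylase and trypsin inhibitor family of the seed. RAG2 (LOC4342723) had 3 member probe sets, and the brightest read 15.18, 15.10 and 15.06 in N22 controls and 14.79, 14.88 and 14.78 under heat. RA5 (LOC4342727) read 14.26, 14.25 and 14.18 in N22 controls and 13.32, 13.51 and 13.53 under heat. RAG1 (LOC4342722) was dimmer and separated most between the N22 groups, with 13.02, 12.97 and 12.80 in controls and 10.30, 10.77 and 10.58 under heat. IR64 values of the 5 allergen probe sets ran from 2.29 to 3.05.

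These allergen genes are also neighbours. In the gene order of the RefSeq assembly ASM3414082v1, the member genes LOC4342720, LOC4342721, RAG1 and RAG2 followed each other directly, and RA5 came next after 3 intervening protein-coding genes. Only 1 other group of member genes lay within 10 genes of each other, LOC4328876 and GLUD1 with 1 gene between. The other 70 of the 77 protein-coding member genes had no such neighbour.

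Starch synthesis was represented by WX1 and SSII-3. WX1 (LOC4340018), the granule-bound starch synthase that makes amylose, had 2 member probe sets. The brighter read 14.41, 14.26 and 14.27 in N22 controls and 12.86, 13.12 and 12.99 under heat. The other read 13.84, 13.71 and 13.68 in controls and between 11.84 and 12.07 under heat. SSII-3 (LOC4340567), a soluble starch synthase that shapes amylopectin, read 13.01, 13.01 and 13.05 in controls and 12.09, 12.05 and 11.65 under heat. Heat and control arrays did not overlap for any of these 3 probe sets, which was also so for most members (112 of 146).

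TIP3-1 (LOC4348981), an aquaporin of the seed vacuole membrane, read 14.70, 14.69 and 14.72 in N22 controls and 14.75, 14.78 and 14.78 under heat. EM (LOC4338499), a LEA protein of the maturing seed, read 12.09, 12.14 and 12.03 in controls and 11.18, 11.38 and 11.27 under heat. R1C-Prx (LOC4344045), a seed peroxiredoxin, read 12.14, 12.13 and 11.95 in controls and 11.02, 11.10 and 11.28 under heat.

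The remaining named members were outside these groups. NAS2 (LOC4332607), a nicotianamine synthase whose product binds iron and zinc, read 11.05, 10.97 and 11.19 in N22 controls and 9.49, 9.65 and 9.53 under heat. TPP3 (LOC4343959), a trehalose phosphate phosphatase, averaged 10.64 ± 0.04 and 9.54 ± 0.10. The gene cap2 (LOC4331843) averaged 9.57 ± 0.13 and 10.57 ± 0.03.

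**Figure D2:**
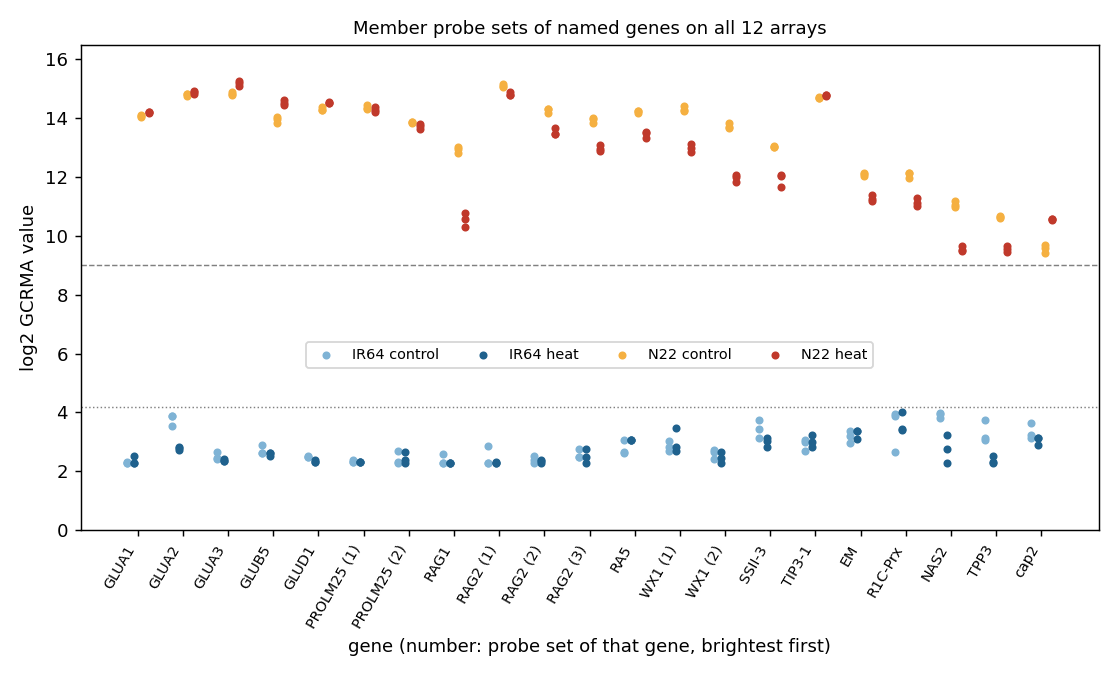
Log2 GCRMA values (vertical axis) of the 21 member probe sets with an informative gene name (horizontal axis, grouped by role), 1 point per array, with IR64 in blue and N22 in orange and red. The dashed line marks 9 and the dotted line 4.2; the N22 heat points of RAG1, WX1, SSII-3 and NAS2 lie below their N22 control points.

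Several of the brightest members had no informative name. LOC4329275 had 2 member probe sets, the brighter at 15.06 ± 0.06 in N22 controls and 15.19 ± 0.01 under heat. Of the 10 members with the highest N22 means, 3 paired with no gene, and Os.8502.7.S1_x_at among them averaged 15.19 ± 0.03 in N22 controls. LOC4343901 and LOC4324532 each had 3 member probe sets.

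Other probe sets of the same genes gave a partly different picture. There were 25 of them, for 16 genes, and 7 lay at or under 4.2 on all 12 arrays. Of the other 18, N22 lay above IR64 without overlap for 15, below it for 2, and overlapped for 1. No share without overlap over all probe sets is given here. The nearest comparison is the fit, which called 35.1% of tested probe sets higher in N22 in controls and 29.6% under heat. IR64 exceeded 4.2 on some array for 10 of the 25, so background signal in IR64 was not a property of every probe set of these genes.

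WX1 is an example. Its probe set Os.11244.3.S1_x_at read 8.41, 5.96 and 5.56 in IR64 controls and 3.54, 6.31 and 4.26 in heated IR64, against 15.15 to 15.33 in N22. IR64 control replicate 1 gave the highest of these IR64 values. The probe set Os.11244.2.S1_x_at read between 5.02 and 7.28 in IR64 and between 14.88 and 15.29 in N22. Both missed the rule through IR64 alone.

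LOC9270227 had 3 further probe sets with N22 values between 15.09 and 15.58. Each exceeded 4.2 in IR64 on control replicate 1 only, at 4.24, 4.52 and 4.38. LOC4326959 read 7.88 to 8.51 in IR64 and 13.62 to 13.96 in N22 with Os.13595.1.S1_at, while its member probe set read 2.40 to 3.06 in IR64.

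The gene LOC4337923 went opposite ways. Its member probe set read 9.10 to 10.14 in N22 and 2.29 to 2.75 in IR64, but Os.5838.1.S1_at read 8.86 to 9.97 in IR64 and at most 4.81 in N22. A further probe set, Os.22560.1.A1_s_at, read 10.50 to 10.99 in IR64 and 11.55 to 12.10 in N22. For GLUA2, Os.5151.1.S1_at was dim and higher in IR64, at 5.35 to 5.63 against 4.65 to 5.01.

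A further 14 probe sets shared the array's sequence cluster with a member and were not paired with exactly 1 member gene. Of these, 11 paired with no gene, 2 with other genes and 1, Os.22346.1.S1_x_at, with the same several genes as its member. In all, 3 lay at or under 4.2 on all arrays, and N22 lay above IR64 without overlap for 9 of the other 11. Here too, no share over all probe sets is given. A cluster that holds probe sets of many different genes was left out of this count, a choice made after its values were seen.

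**Figure D3:**
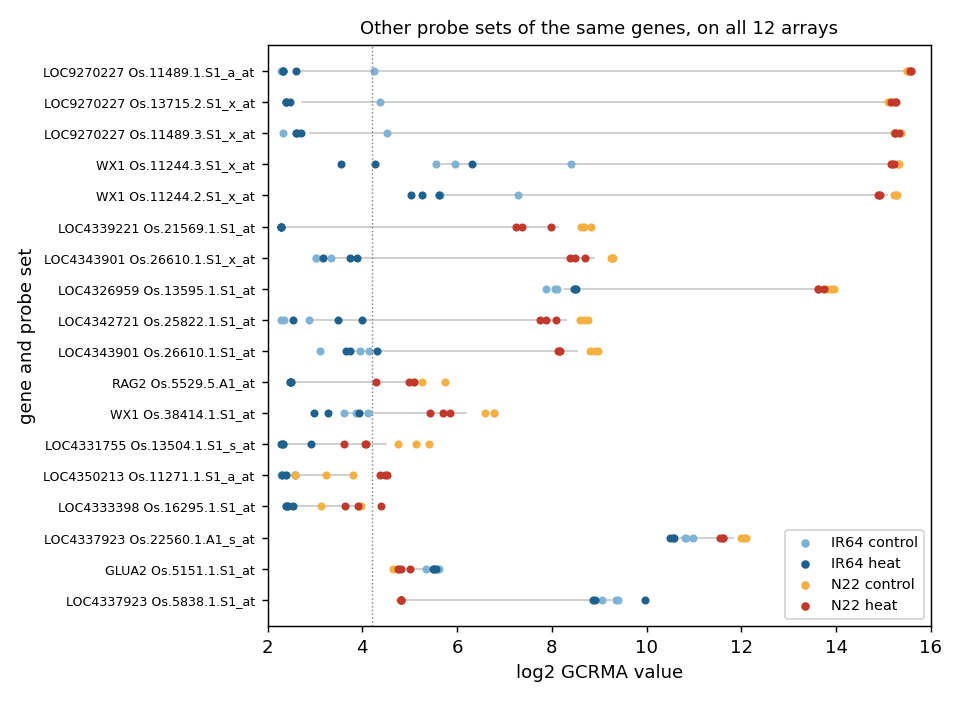
Log2 GCRMA values (horizontal axis) on the 12 arrays for the 18 other probe sets of member genes with a value above 4.2 on some array (vertical axis), 1 point per array, coloured by group, with a grey line joining the cultivar means and a dotted line at 4.2. N22 points lie to the right for 15 of the 18 and to the left for GLUA2 Os.5151.1.S1_at and LOC4337923 Os.5838.1.S1_at.

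Marker lists of tissues differed between the cultivars in the same samples. Each list is given as the log2 of the summed linear values of its markers on an array. The grain and endosperm list, with 6 of 8 markers found, ran from 10.93 to 11.14 in IR64 controls, 10.22 to 10.61 in heated IR64, 17.39 to 17.44 in N22 controls and 17.26 to 17.38 in heated N22. Of its 6 probe sets, 4 are members, so the list is not independent of the rule. The WX1 probe set used is not a member, but WX1 has member probe sets. SBE1, a starch branching enzyme that is not a member, averaged 10.90 and 10.32 in IR64 control and heat and 15.25 and 14.34 in N22. In IR64 the sum was mostly SBE1, since the 4 members lay at background by the rule. The WX1 probe set averaged 6.64 and 4.70 in IR64 control and heat.

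The panicle and spikelet list (11 of 12 markers) went the other way, with 13.80 to 13.96 over all IR64 arrays, 11.04 to 11.12 in N22 controls and 12.17 to 12.41 in heated N22. Green tissue markers (3 of 6) ran from 16.10 to 16.24 in IR64, 13.63 to 13.74 in N22 controls and 15.53 to 15.65 in heated N22. Secondary wall markers (3 of 4) were high only in IR64 controls, at 12.94 to 13.23, and between 7.09 and 7.47 in the other groups. Anther and pollen wall markers (6 of 10) summed to 6.92 to 7.27 in IR64 and 8.03 to 8.95 in N22, with TDR, PTC1, C6 and CYP703A3 at background on all 12 arrays and EAT1 at background in IR64. The sum was mostly GAMYB, which averaged 6.94 and 6.52 in IR64 control and heat and 8.72 and 7.94 in N22. The floral marker DL was also at background throughout. In bulk tissue, fewer cells of a type and less RNA per cell cannot be told apart, and since the labels give no grain stage, cultivar and stage cannot be told apart either.

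**Figure D4:**
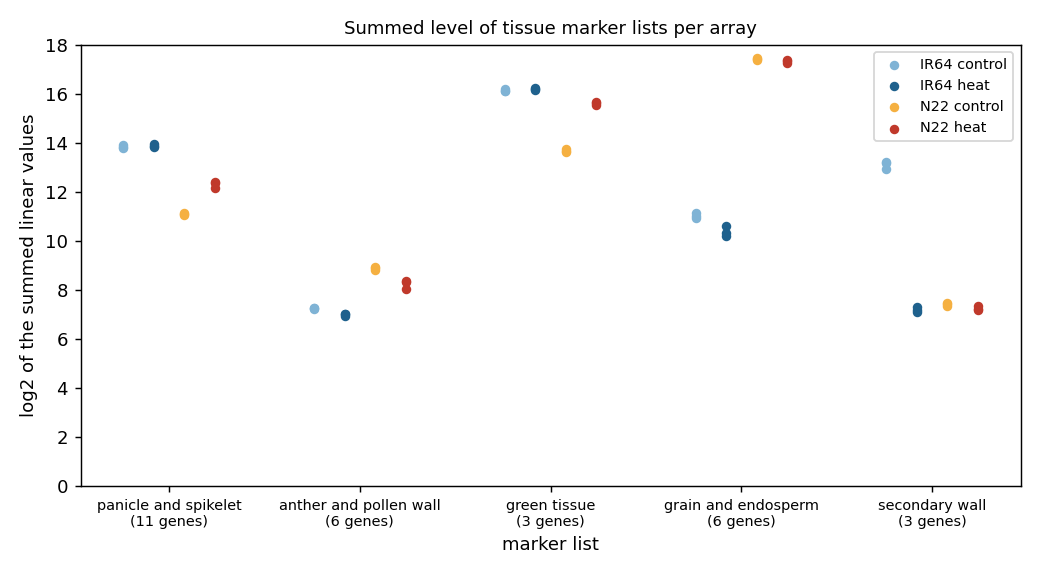
Summed level of 5 tissue marker lists (horizontal axis, number of genes used in brackets) as the log2 of summed linear values (vertical axis), 1 point per array, coloured by group. The grain and endosperm list is higher in N22 and the panicle and green tissue lists are higher in IR64.

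The rule did not use heat within N22, so that comparison was tested, with limma over all 29801 probe sets above the filter. Calls required an adjusted p (Benjamini-Hochberg) under 0.05. Among the 146 members, all of which were tested, 20 were higher under heat (13.7%) and 59 lower (40.4%), and 67 were not called. Over all tested probe sets, 23.9% were called higher and 27.8% lower, 51.7% together. Among the other probe sets bright in N22, 22.9% were called higher and 47.4% lower, so the members' share of falls lay between these 2 backgrounds. The counts depended on the scaling. With each array centred on the median of its tested probe sets, an alternative chosen after seeing the data, 12 members were higher and 81 lower (55.5%), against 45.1% lower over all tested probe sets and 62.1% over the other bright ones.

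Falls of at least 2-fold were called for 17 members (11.6%), against 6.09% of all tested probe sets and 3.14% of the other bright ones. Rises of at least 2-fold were called for 2 members, or 1.37%, against 11.0% of all tested probe sets and 5.12% of the other bright ones. The rule limited such changes among the members and the other bright probe sets, but not among all tested probe sets. The median heat effect was -0.15 over the members, -0.16 over the other bright probe sets and -0.01 over all tested probe sets, and with that centring -0.34, -0.35 and -0.20.

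The 24 members with an N22 mean of 14 or higher had effects between -0.45 and 0.57 (median 0.03), with 4 called higher and 0 lower. That count of 0 depended on the spread of the IR64 arrays, which the fit pools: 4 of the 24 were called lower without IR64 control replicate 1, 1 without IR64 control replicate 3 and 6 (with 7 higher) in a fit on only the N22 arrays. With centring on the tested probe sets, 7 were called lower and 1 higher. The 47 members from 12 to under 14 had a median of -0.19, with 22 lower and 6 higher. The 75 members under 12 had a median of -0.38, with 37 lower and 10 higher. The other bright probe sets had medians of -0.04, -0.15 and -0.17 in these classes. The highest value on any array was 15.83, so the brightest class lay near the top of the scale. Effects could differ with level within 1 gene. For WX1 they were -1.77, -1.32, -0.36 and -0.13 at N22 means of 12.86, 13.65, 15.08 and 15.25. A dim WX1 probe set, at 6.19, had -1.05. The part of signal level in these effects was not tested.

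By role, of 7 storage protein probe sets, 3 rose, 0 fell and 4 were not called (median 0.13). GLUB5 rose by 0.57 ± 0.09 on the log2 scale (SE, adjusted p = 0.000284), GLUA3 by 0.36 ± 0.07 (adjusted p = 0.00152) and GLUD1 by 0.20 ± 0.04 (adjusted p = 0.00295). With the same centring, GLUA3 and GLUD1 were no longer called and both PROLM25 probe sets were called lower. The only probe set paired with GLUB4 (LOC4328969) alone lay at background on all 12 arrays, but a member probe set shared by GLUB4, GLUB5 and LOC4326442 read 13.40 to 14.14 in N22 and rose by 0.55 ± 0.14 (adjusted p = 0.00658). Its signal cannot be assigned to 1 of these genes.

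All 3 starch probe sets fell (median -1.32). WX1 fell by 1.77 ± 0.11 (adjusted p = 4.84e-07) and by 1.32 ± 0.18 (adjusted p = 0.000128) with its 2 probe sets, and SSII-3 fell by 1.10 ± 0.16 (adjusted p = 0.000189). The brightest WX1 probe set, Os.11244.3.S1_x_at, which is not a member, differed by -0.13 ± 0.78 and was not called. The fit pools the groups, and its SD was 1.54 and 1.43 in IR64 control and heat but 0.02 and 0.03 in N22. Its N22 heat and control arrays did not overlap. Among the other WX1 probe sets outside the rule, Os.11244.2.S1_x_at differed by -0.36 ± 0.37 and was not called. Os.38414.1.S1_at fell by 1.05 ± 0.22 (adjusted p = 0.00259). Of the other SSII genes, SSII1 fell by 1.28 ± 0.08 and SSII2 rose by 1.05 ± 0.17.

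Among the 5 allergen probe sets, 4 fell and 1 was not called (median -0.78). RAG1 fell by 2.38 ± 0.12 (adjusted p = 1.17e-07), the largest fall of any member. RA5 fell by 0.78 ± 0.10 (adjusted p = 0.000115). RAG2 fell by 0.97 ± 0.12 and by 0.74 ± 0.08 with 2 probe sets, and its brightest probe set differed by -0.30 ± 0.13 (adjusted p = 0.0865). That probe set was called (adjusted p = 0.000825) once IR64 control replicate 1 was left out, since the fit pools the spread of all 4 groups.

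EM fell by 0.81 ± 0.11 (adjusted p = 8.55e-05), and TIP3-1 differed by 0.07 ± 0.11 (adjusted p = 0.684). R1C-Prx fell by 0.94 ± 0.30 (adjusted p = 0.0247), a call that was lost without N22 control replicate 1 or 2 or N22 heat replicate 1 or 2 (adjusted p from 0.0615 to 0.0725). NAS2 fell by 1.51 ± 0.19 (adjusted p = 6.01e-05) and TPP3 by 1.10 ± 0.16 (adjusted p = 0.000163), while cap2 rose by 0.99 ± 0.13 (adjusted p = 8.29e-05). Families were matched by the letters of the symbol alone, with the brightest probe set of each gene, members included. Of the 9 genes on the array named TIP, 3 rose, 1 fell, 4 were not called and 1 was not tested. Of the 9 named TPP, 2 rose, 2 fell, 4 were not called and 1 was not tested. TIP2 named both LOC4325164 and LOC4330207, and TPP2 both LOC4330237 and LOC4349333. These counts may therefore include genes unrelated to TIP3-1 or TPP3. Of the 3 NAS genes, 2 fell and 1 was not called.

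The largest rises had no gene name. Os.13536.1.S1_at read 11.88, 11.91 and 11.67 in N22 controls and 13.21, 13.50 and 13.28 under heat, a rise of 1.51 ± 0.08 (adjusted p = 1.74e-07). Os.16083.1.S1_at rose by 1.28 ± 0.11 (adjusted p = 3.41e-06). Large falls without an informative name included Os.48026.1.A1_at, which fell by 1.51 ± 0.18, LOC4327363 by 1.40 ± 0.34, LOC4350941 by 1.37 ± 0.11 and LOC4325957 by 1.34 ± 0.18. Os.13954.1.S1_x_at rose by 0.70 ± 0.23 (adjusted p = 0.0281) and lost its call when any 1 of the 6 N22 arrays was left out.

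**Figure D5:**
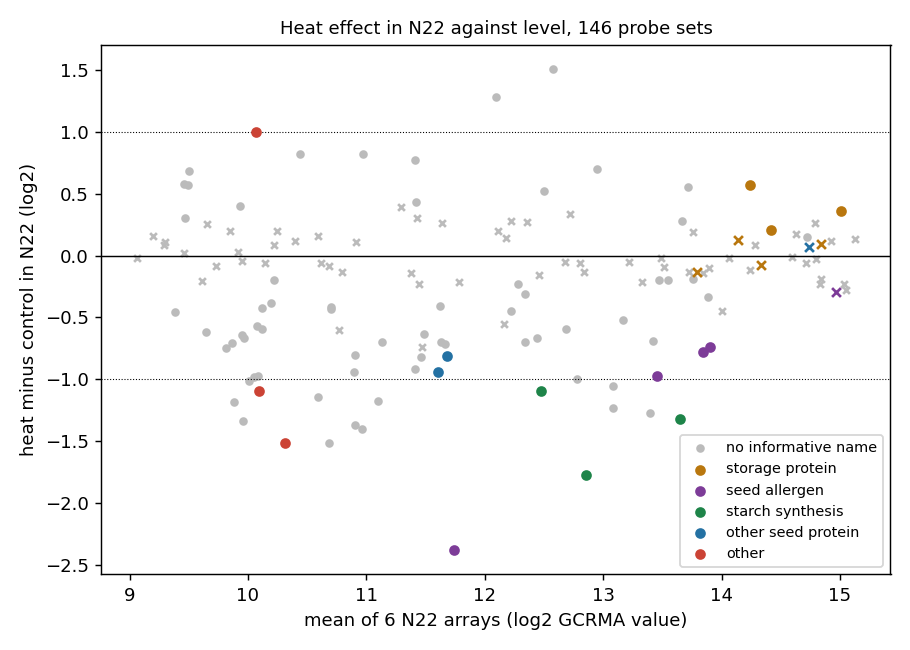
Heat minus control in N22 (vertical axis, log2) against the mean of the 6 N22 arrays (horizontal axis, log2 GCRMA value) for the 146 probe sets, coloured by role; filled points are called and crosses are not, and dotted lines mark 2-fold. Starch and allergen points lie below 0, and storage protein points lie between -0.13 and 0.57.

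Panicle and green tissue marker sums were also higher in heated than in control N22, as given above, and the 5.8S rRNA control probe set rose with them, from 5.89 ± 0.05 in N22 controls to 8.96 ± 0.40 under heat. Their part in the heat effects was not tested. The 3' minus 5' difference of GAPDH, a sign of RNA quality, was 4.79 ± 0.18 in IR64 controls, 7.93 ± 0.16 in heated IR64, 8.59 ± 0.14 in N22 controls and 8.81 ± 0.17 in heated N22. That of ubiquitin was 1.45 ± 0.03, 2.15 ± 0.01, 2.21 ± 0.07 and 2.04 ± 0.05 in the same order. From N22 control to heat, the 2 measures moved in opposite directions. Their part in the cultivar difference and the heat effects was not tested. Replicates of a group correlated at 0.994 to 0.997 over the tested probe sets, and 33.2% to 34.5% of probe sets lay above 4.2 on each array. The heat effect in IR64 cannot be measured for the members, since both IR64 groups lie at background by the rule.

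Values ran on across the edges of the rule. The dimmest members were Os.51658.1.S1_at, whose lowest N22 value was 9.01, and Os.54362.1.S1_at and Os.18336.1.S1_at, both at 9.06. Just outside, Os.3419.1.S1_a_at, Os.56223.1.S1_at and Os.16424.1.S1_at had lowest N22 values of 8.99, 8.99 and 8.98. On the IR64 side, the highest values inside were 4.18, 4.18 and 4.17, and those just outside were 4.24 for Os.2239.1.S1_at, 4.24 for Os.11489.1.S1_a_at and 4.31 for Os.38512.1.S1_x_at.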

How the data were processed

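The authors deposited log2 values made with GCRMA, per the submitters' processing notes, with no version named. The log2 scale was read from the values, which run from 2.29 to 15.83. No detection calls were used, and the number of arrays limits the precision. Using limma 3.58.1 (R 4.3.3), 1 mean per group was estimated from the 12 arrays, without a replicate term, for the 29801 probe sets above the table median of 2.35 on at least 3 arrays. P-values are two-sided and Benjamini-Hochberg adjusted over these. The fit was also run on simulated data with the same spread in all 4 groups. Unequal spread between groups, as seen for WX1, was not covered by it. Left out were 123 AFFX and 64 RPTR control probe sets.

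The members and lists were chosen with earlier results of these data known. Genes named comprise members with an informative name, the 10 highest N22 means, the 8 largest called rises and falls, the 3 members nearest each edge and members whose gene has another probe set. Names and role groups, the matching of gene families (EM and R1C-Prx were not counted), and the removal of markers that match several genes (MADS2, GS2, BC1) were settled after values were seen. LHCB genes of the green list were not entered. Marker genes use their brightest probe set. Genes were named through the array annotation and RefSeq (ASM3414082v1). No coordinates are given, since the build of the annotation is not stated, and no sequences were used here.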

Additional observations from a re-analysis of the deposited data

How the results depend on the processing

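With each array centred on its whole-table median, as planned, 24 members were higher and 55 lower, the median effect was -0.13 and the rule was met by 146 probe sets. That median lies near the floor of the table and hardly moves the bright values. A centring on the median of the tested probe sets was therefore added after seeing the data: it moved the median of all tested probe sets from -0.01 to -0.20, gave 18.7% higher and 45.1% lower over all of them, and left 12 members higher and 81 lower with a median of -0.34. Under it LOC9270227 Os.13715.3.S1_x_at went from 0.15 to -0.038. Quantile normalization gave 23 higher and 53 lower, no filter 18 and 51, and a fit on only the N22 arrays 28 and 69. A fit with the replicate block gave 19 higher and 57 lower. Deviations of N22 control and heat arrays correlated at 0.0003 to 0.100 for the same number and at -0.076 to 0.034 for different numbers. With 3 arrays per group this cannot show whether the numbers pair the samples. Leaving out 1 array gave 16 to 23 higher, 49 to 62 lower, a median of -0.20 to -0.14 and 146 to 152 probe sets that meet the rule. With N22 at 10 or higher and IR64 at 3 or lower, 56 probe sets met the rule and 9 its mirror; with 8 and 5, 266 and 67. On only the control arrays 206 met it, and on only the heat arrays 207, both added after seeing the data. Of 1083 values for the 57 named members over 19 settings, 1028 kept direction and call. Many of these settings, such as leaving out an IR64 array or the fit on only the N22 arrays, cannot change the estimated effect. In them only the call could change. With centring on the tested probe sets, 46 of the 57 kept direction and call. Levels in IR64 are limited by background.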
